A study of Mus musculus with 3 samples.

Results

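The genes described here are the subunits of the transcription factor NF-kB and its inhibitors in mouse ventricles under pressure load. They were chosen by symbol: Nfkb1, Nfkb2, Rel, Rela, Relb, Nfkbia, Nfkbib, Nfkbie, Nfkbiz and Tnfaip3, which are 10 of the 29994 gene symbols in the count matrices, and all 10 were found. Each was counted in 3 droplet libraries (10x Genomics) of frozen ventricular tissue from C57B6 mice, with 1 library per group and 3 pooled hearts per library. The Sham library came from Sham mice given vehicle, the TAC library from TAC mice given vehicle, and the TAC+ART library, titled ART in the labels, from TAC mice given artesunate. TAC stands for transverse aortic constriction, in which a narrowed aorta raises the load on the left ventricle, and artesunate is an antimalarial drug of the artemisinin family. The sources used here do not give the dose, the times, the ages or whether nuclei rather than whole cells were loaded. Each barcode is called a cell below.

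NF-kB acts as a dimer of its subunits. In a resting cell, inhibitors of the IkB family hold these dimers in the cytoplasm. Signals from receptors for cytokines and microbial products activate the IKK kinase complex, which marks the inhibitors for destruction, and the released dimers enter the nucleus. Many of the genes that they switch on encode their own inhibitors, so that the response limits itself. In the heart the pathway is known for inducing cytokines, chemokines and adhesion molecules after injury and under pressure load.

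The promoters are shown first because the members differ in whether they carry the sequence that NF-kB itself binds, the kappaB consensus. RefSeq promoter sequences (GRCm38.p6, the patch release of the build used for the counts) were at hand for 7 of the 10 members: Nfkb2, Rel, Rela, Nfkbia, Nfkbib, Nfkbie and Tnfaip3. The 250 bases before each annotated start were searched on both strands, and overlapping matches were each counted. Of the 7 members, 5 held a match at 1 start or more (71.4%), against 4.46% of the 27025 genes in the table and 3.90% of its 32851 promoters. The 130 bases before the first listed start follow, 5′ to 3′ on the gene's own strand, with matches on either strand in capitals.
Nfkb2 (chr19:46304607-46304736, plus strand): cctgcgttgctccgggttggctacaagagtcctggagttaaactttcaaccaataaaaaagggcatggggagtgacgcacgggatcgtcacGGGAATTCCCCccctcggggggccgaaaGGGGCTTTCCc
Rel (chr11:23770970-23771099, minus strand): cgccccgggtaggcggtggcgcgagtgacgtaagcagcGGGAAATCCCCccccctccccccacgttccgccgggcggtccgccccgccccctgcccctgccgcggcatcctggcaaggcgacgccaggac
Nfkbia (chr12:55492648-55492777, minus strand): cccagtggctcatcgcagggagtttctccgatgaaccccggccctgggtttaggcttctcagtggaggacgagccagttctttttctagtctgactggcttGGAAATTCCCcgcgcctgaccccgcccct
Nfkbie (chr17:45555570-45555699, plus strand): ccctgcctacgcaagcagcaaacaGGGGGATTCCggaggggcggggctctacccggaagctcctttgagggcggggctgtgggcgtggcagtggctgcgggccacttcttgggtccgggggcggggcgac
Tnfaip3 (chr10:19015411-19015540, minus strand): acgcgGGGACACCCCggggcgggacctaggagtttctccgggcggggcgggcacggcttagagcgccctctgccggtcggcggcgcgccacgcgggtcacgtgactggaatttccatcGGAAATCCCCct
Rela (chr19:5637411-5637540, plus strand): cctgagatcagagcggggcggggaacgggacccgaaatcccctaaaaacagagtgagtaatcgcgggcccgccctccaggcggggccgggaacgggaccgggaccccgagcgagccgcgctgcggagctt
Nfkbib (chr7:28766645-28766774, minus strand): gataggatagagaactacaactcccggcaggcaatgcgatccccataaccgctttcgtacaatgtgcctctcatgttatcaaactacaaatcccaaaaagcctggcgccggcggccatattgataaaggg

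Nfkb2 carried overlapping matches from -39 to -29 and 1 at -11 to -2 relative to the start, and Nfkbia 1 at -29 to -20. In Rel the overlapping matches ran from -92 to -82. The single match of Nfkbie lay at -106 to -97, and those of Tnfaip3 lay at -125 to -116 and at -12 to -3. Rela and Nfkbib held no match in this window, which says only that these letters are not there. The windows of Nfkb2, Rel, Rela, Nfkbib and Tnfaip3 touch or lie within the wider span that GENCODE M21 gives those genes, whereas those of Nfkbia and Nfkbie lie outside it. The 3 starts listed for Nfkb2 each had a match, and the second start of Tnfaip3 had none. A match is a description of the sequence, and binding was not measured here. The genes of the other 3 members lie on minus strands, Nfkb1 at chr3:135584655-135691547, Relb at chr7:19606217-19629438 and Nfkbiz at chr16:55811375-55838899 (GENCODE M21, GRCm38).

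The libraries held 3752 (Sham), 7413 (TAC) and 6856 (TAC+ART) barcodes, with medians of 4310, 4811 and 4524.5 UMIs. After filters and doublet removal, 17090 cells were used. A marker gate placed 15765 of them (92.2%) in 7 cell classes with at least 50 cells in every library: fibroblast-like, endothelial-like, macrophage-like, cardiomyocyte-like, endocardial-like, lymphatic endothelial-like and pericyte-like, written without "-like" below. The summed markers of each class were highest in that class in each library, and none of a class's own markers was at 0 there. The gate used these same markers, so this is no independent check of the classes. A cluster of the same name held 98.1% of the gated cells, and 8.93% of all cells lay within 0.1 of a limit of the gate. Clusters were named from the same marker scores, so the 98.1% is not independent of the gate. Between any pair of libraries, 20 to 27 barcodes were shared. The fibroblasts, endothelial cells, macrophages and cardiomyocytes of the 3 libraries fell partly into different clusters, so a class comparison sets partly different cells side by side. Most fibroblasts lay in cluster 5 in Sham (85.1%), cluster 0 in TAC (85.0%) and cluster 1 in TAC+ART (75.7%). The main macrophage clusters were 7, 6 and 7 (63.5%, 69.3% and 72.6%), and the main endothelial cluster was 9 in Sham (68.8%) and 2 in TAC and TAC+ART (41.0% and 39.7%). Macrophage cluster 22, with Timd4 among its leading genes, held 16% of Sham macrophages (60 cells) and 0 cells of TAC and TAC+ART. The part of cluster 22 in the macrophage ratios was not tested. Cardiomyocytes lay mostly in cluster 12 in Sham (79.5%) and TAC+ART (51.6%), and in TAC they were spread over clusters 15 (32.4%), 12 (23.6%) and 16 (22.2%).

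Levels are UMIs of a gene per 1000000 UMIs of the class (CPM). They are compared across libraries and classes and not between genes, because differences between genes in how well they are captured are not accounted for. Ratios are log2 values with 0.5 UMIs added to each sum, and brackets hold 95% intervals for counting error. Because each group was a single library, nothing could be tested and there was no measure of the spread between hearts, so every difference below describes these 3 libraries. A gene was counted in a comparison if the 2 libraries together held at least 20 of its UMIs in the class, and a ratio of 1.5-fold or more (0.58 on the log2 scale) was used to count genes as higher or lower.

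The precursor subunits come first. Nfkb1 encodes p105, which is processed to the DNA-binding subunit p50. In fibroblasts its level was 362 CPM in Sham, 576 in TAC and 419 under TAC+ART, and the fibroblast interval lay above that of every other class in each library. Macrophages came next with 303, 335 and 310.4 CPM, and cardiomyocytes were lowest with 141, 161 and 136. In endothelial cells the level was 196 CPM in Sham, 242 in TAC and 179.9 under TAC+ART. Nfkb2 encodes p100, which restrains RelB and is processed to p52 in the alternative pathway. Its fibroblast level was 7.01 CPM in Sham, 20.9 in TAC and 10.4 under TAC+ART, and its endothelial level was 12.1, 21.6 and 10.9. In macrophages Nfkb2 stood at 9.67, 16.6 and 11.8 CPM, and in cardiomyocytes at 4.13, 13 and 6.81, the latter from 9, 24 and 18 UMIs. Nfkb2 was highest in endocardial cells in all 3 libraries (14.7, 23.0 and 16.2 CPM), but the interval overlapped that of the next class each time.

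The 3 subunits with an activation domain had different class patterns. Rel encodes c-Rel, the subunit best known from immune cells. It was highest in macrophages, with 66.0 CPM in Sham, 90.4 in TAC and 90.0 under TAC+ART, above the interval of every other class in each library. Cardiomyocytes held 40.4, 35.7 and 38.2 CPM of Rel with overlapping intervals. Endothelial cells held 21.9, 53.7 and 25.8, and fibroblasts 10.3, 25.8 and 14.6. Rela encodes p65, the main activating subunit of the canonical pathway. It was highest in pericytes, the cells that wrap small vessels, at 114 CPM in Sham, 73.5 in TAC and 88.2 under TAC+ART. Only the TAC interval of pericytes overlapped that of the next class, endothelial cells. In fibroblasts Rela read 43.1, 38.6 and 36.7 CPM, in endothelial cells 47.7, 61.1 and 41.6, in macrophages 30.7, 42.4 and 39.7, and in cardiomyocytes 16.5, 26.5 and 19.3. Relb encodes RelB, the partner of p52. Its level was 36.0, 62.4 and 34.8 CPM in fibroblasts and 42.6, 86.2 and 35.5 in endothelial cells, so that TAC was high and the other two libraries were close to each other. In macrophages Relb was nearly level at 34.1, 35.7 and 39.1 CPM, and in cardiomyocytes it was low at 7.81, 15.7 and 11.7.

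Among the inhibitors, Nfkbia encodes IkB-alpha, the inhibitor that NF-kB induces fastest. It was highest in endothelial cells (113, 204 and 121 CPM in Sham, TAC and TAC+ART) and endocardial cells (105, 216 and 119), whose intervals overlapped in each library. Fibroblasts held 27.1, 69.4 and 36.7 CPM of Nfkbia, macrophages 37.5, 47.1 and 30.6, and cardiomyocytes 16.5, 64.3 and 30.3. Nfkbib encodes IkB-beta and was sparse, with 726 UMIs over all cells. It ranged from 3.67 to 14.5 CPM over the 4 largest classes, and neighbouring classes overlapped in every library. Nfkbie encodes IkB-epsilon and had 656 UMIs. Its macrophage level was 7.40 CPM in Sham, 23.0 in TAC and 9.71 under TAC+ART, higher than in any other class in each library. The interval was clear of the next class in TAC+ART alone, where that class was fibroblasts. It still overlapped the wider intervals of pericytes, endocardial cells and lymphatic endothelial cells there. Endothelial cells held 3.10, 10.6 and 3.14 CPM of Nfkbie, fibroblasts 3.31, 8.23 and 4.33, and cardiomyocytes 1.84, 4.86 and 0.757 (4, 9 and 2 UMIs).

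Nfkbiz encodes IkB-zeta, a nuclear member of the family that helps to switch on a subset of NF-kB targets. Macrophages held 129.7 CPM in Sham, 131 in TAC and 198 under TAC+ART, above the interval of every other class in each library. Fibroblasts held 54.7, 88.1 and 53.1 CPM and endothelial cells 44.9, 73.6 and 41.4, again with TAC apart from the other two. Cardiomyocytes were lowest at 4.13, 25.4 and 14.8 CPM (9, 47 and 39 UMIs). Tnfaip3 encodes A20, a ubiquitin-editing enzyme that shuts off the signal upstream of IKK. Endothelial cells held 8.0 CPM in Sham, 40.7 in TAC and 11.8 under TAC+ART (31, 344 and 86 UMIs). Macrophages held 12.5, 10.4 and 12.2 CPM with overlapping intervals. In Sham and TAC+ART the macrophage and endothelial intervals overlapped, and in TAC the endothelial level was the highest of the classes, with an interval that overlapped the endocardial one. Fibroblasts held 5.06, 13.1 and 6.72 CPM, and cardiomyocytes 2.30, 10.3 and 2.27 from 5, 19 and 6 UMIs.

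**Figure D1:**
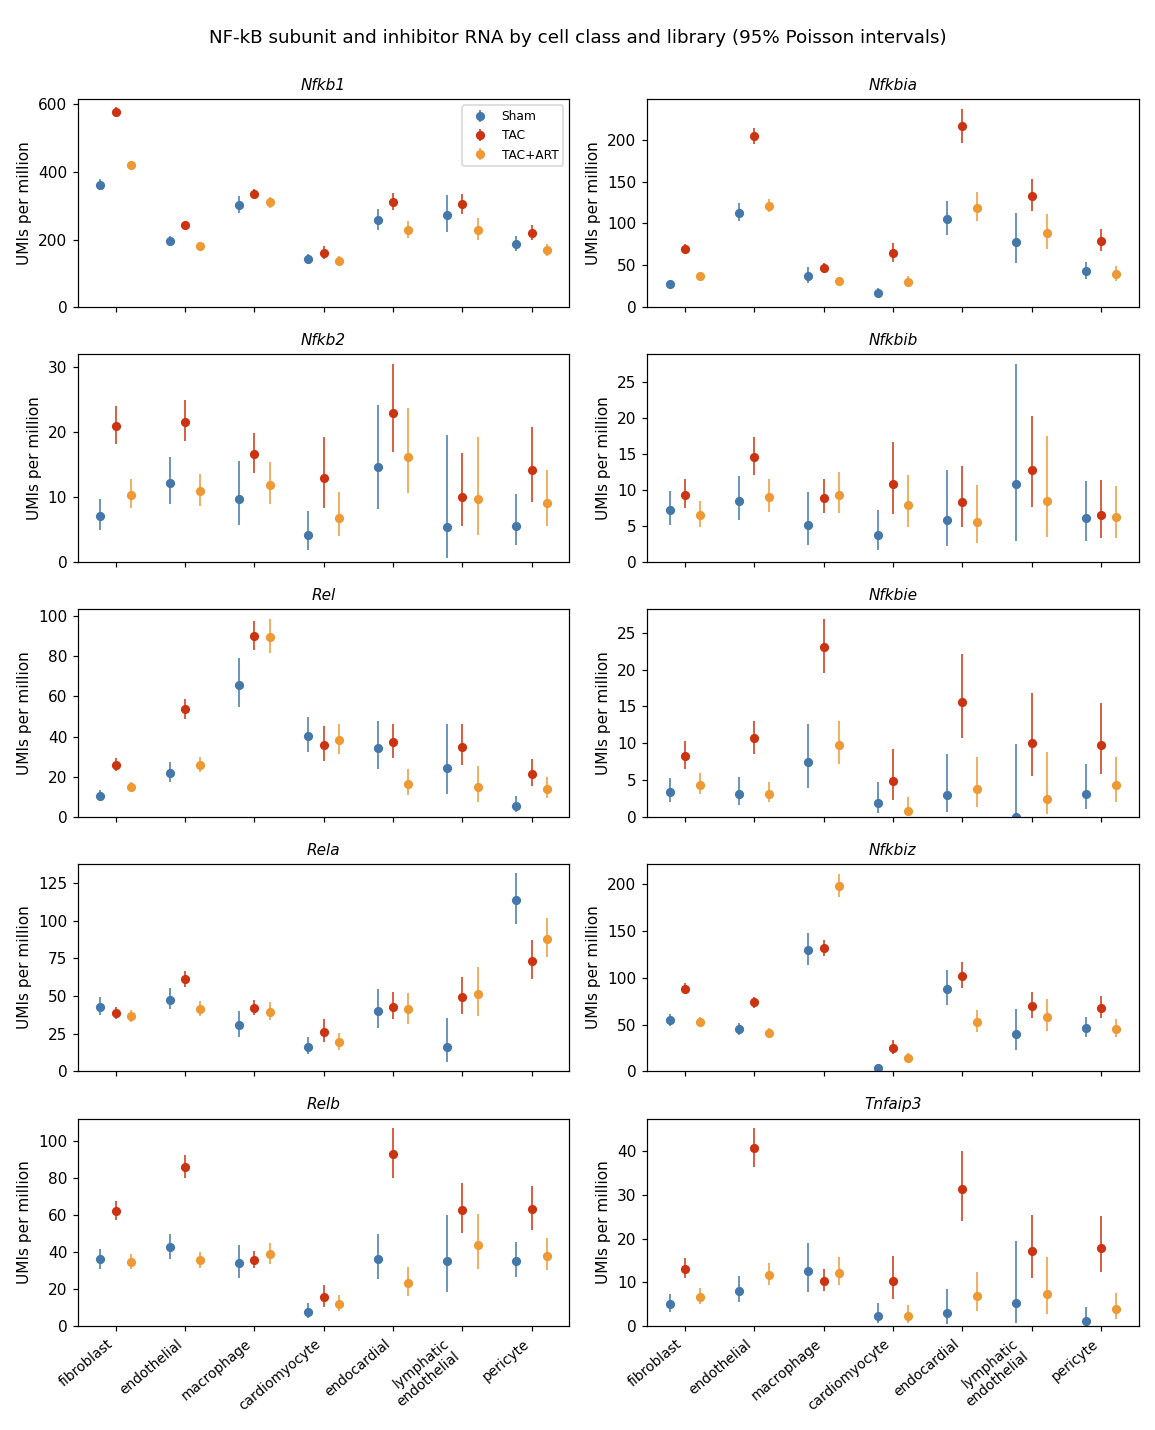
Level of each NF-kB subunit (left) and inhibitor (right) in CPM, by cell class and library. Points are the class sums of the Sham, TAC and TAC+ART libraries and bars are 95% Poisson intervals for counting error. Nfkb1 is highest in fibroblasts and Nfkbiz in macrophages in all 3 libraries, and Nfkbia in endothelial cells reads 113, 204 and 121.

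The first comparison asked how the members differed between the pressure-loaded and the Sham ventricle. In fibroblasts, the main makers of matrix, 8 of 10 members were higher in TAC by 1.5-fold or more against 17.4% of all 15869 genes counted. None was lower, against 15.9% of all genes. The median of the members was 1.04 on the log2 scale and that of all genes 0.00. Nfkb2 was highest at 1.56 (1.06 to 2.13). Close behind were Nfkbia at 1.35 (1.09 to 1.63), Tnfaip3 at 1.35 (0.76 to 2.04), Rel at 1.31 (0.89 to 1.78) and Nfkbie at 1.28 (0.55 to 2.16). Smaller ratios were found for Relb with 0.79 (0.55 to 1.04), Nfkbiz with 0.69 (0.49 to 0.89) and Nfkb1 with 0.67 (0.60 to 0.75). The exceptions were Nfkbib at 0.36 (-0.19 to 0.97) and Rela at -0.16 (-0.40 to 0.09), whose intervals include 0. The summed macrophage markers read 119, 271 and 250.5 CPM in fibroblasts of Sham, TAC and TAC+ART (0 of 10 at 0), and their part in these ratios was not tested.

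In endothelial cells, which line the vessels, 8 of 10 members were again higher in TAC, against 12.4% of all 15198 genes counted, and none was lower (12.5% of all genes). Here the members' median was 0.84 and the all-gene median -0.06. Tnfaip3 led with 2.32 (1.81 to 2.93), followed by Nfkbie with 1.73 (0.91 to 2.79), Rel with 1.28 (0.95 to 1.64) and Relb with 1.01 (0.77 to 1.27). Nfkbia stood at 0.86 (0.71 to 1.01), Nfkb2 at 0.82 (0.37 to 1.33), Nfkbib at 0.76 (0.21 to 1.37) and Nfkbiz at 0.71 (0.47 to 0.96). Rela at 0.35 (0.11 to 0.61) and Nfkb1 at 0.31 (0.19 to 0.43) were under 1.5-fold, although their intervals lay above 0. The summed macrophage markers were 156 CPM in Sham endothelial cells, 375 in TAC and 355 under TAC+ART, and the summed fibroblast markers 1098, 2638 and 3226. Their part in these ratios was not tested.

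Macrophages showed fewer such differences, although they hold the most Rel and Nfkbiz. Of 10 members 3 were higher in TAC by 1.5-fold, against 11.9% of all 14161 genes counted, and none was lower (17.6% of all genes). They were Nfkbie at 1.59 (0.82 to 2.58), Nfkb2 at 0.74 (0.03 to 1.61) and Nfkbib at 0.74 (-0.21 to 2.0), the last from 9 and 61 UMIs with an interval that includes 0. With each cell given equal weight, 1 of 10 passed 1.5-fold, against 12.6% of all genes. Rela and Rel stood at 0.45 each (0.04 to 0.91 and 0.17 to 0.75), Nfkbia at 0.32 (-0.06 to 0.73) and Nfkb1 at 0.14 (0.01 to 0.28). Relb at 0.05 (-0.35 to 0.50), Nfkbiz at 0.02 (-0.19 to 0.23) and Tnfaip3 at -0.29 (-0.97 to 0.50) showed no difference detectable at this depth. The endothelial markers summed to 1109 CPM in Sham macrophages, 331 in TAC and 382 under TAC+ART, and their part in the Sham levels was not tested.

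Cardiomyocytes are the contracting muscle cells, and their comparison rests on few UMIs. Nfkbie fell below the count minimum, and 7 of the 9 members counted were higher in TAC by 1.5-fold, against 35.1% of all 11980 genes counted in this class, and none was lower (18.9%). The largest ratios were those of Nfkbiz at 2.56 (1.57 to 3.83), Tnfaip3 at 2.06 (0.69 to 3.94) and Nfkbia at 1.95 (1.41 to 2.54). Nfkb2 at 1.6 (0.49 to 2.94), Nfkbib at 1.51 (0.31 to 2.95), Relb at 0.99 (0.09 to 1.96) and Rela at 0.67 (0.03 to 1.34) followed. Nfkb1 at 0.18 (-0.05 to 0.42) and Rel at -0.18 (-0.66 to 0.30) had intervals that include 0. The median depth of these cells was 7102.5 UMIs in Sham, 2393 in TAC and 3887 under TAC+ART. Markers of some other classes moved with the members. Fibroblast markers summed to 809, 4019 and 3216 CPM in cardiomyocytes, endothelial markers to 368, 1244 and 757, and macrophage markers to 132, 662 and 407. Among cells of at least 3000 UMIs, an alternative added after seeing the data, 4 of 7 members counted were higher in TAC. The share of all genes was 28.4% there, and Rela turned to -0.01. Within cluster 12 (269, 121 and 281 cells in the order of the libraries) the TAC over Sham ratios were 0.14 for Nfkb2 (-2.56 to 2.15), 0.11 for Rela (-0.98 to 1.07), 1.24 for Nfkbia (0.27 to 2.21) and 2.03 for Nfkbiz (0.36 to 4.01). These rest on 7 and 3, 29 and 13, 20 and 20, and 5 and 9 UMIs in Sham and TAC. The part of depth, of clusters and of other cells' RNA in the cardiomyocyte ratios was not tested.

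The second comparison asked how the members differed between treated and untreated TAC hearts. In fibroblasts 7 of 10 members were lower by 1.5-fold or more with artesunate, against 8.38% of all genes counted, and none was higher (11.0% of all genes). The members' median was -0.83 and the all-gene median -0.02. Nfkb2 stood at -1.01 (-1.39 to -0.65), Tnfaip3 at -0.96 (-1.44 to -0.51), Nfkbia at -0.92 (-1.12 to -0.73) and Nfkbie at -0.92 (-1.52 to -0.36). Relb at -0.84 (-1.04 to -0.64), Rel at -0.82 (-1.14 to -0.51) and Nfkbiz at -0.73 (-0.90 to -0.57) completed the 7. Nfkbib at -0.52 (-1.03 to -0.04) and Nfkb1 at -0.46 (-0.52 to -0.40) were lower by less than 1.5-fold, and Rela at -0.08 (-0.29 to 0.14) was not detectably different. These class ratios set cluster 0 of TAC largely against cluster 1 of TAC+ART, and the ratios within each cluster, given below, were smaller for most members in cluster 0.

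In endothelial cells 8 of 10 members were lower in TAC+ART, against 7.29% of all genes counted, and none was higher (10.2% of all genes). Tnfaip3 and Nfkbie were lowest at -1.78 (-2.15 to -1.45) and -1.74 (-2.49 to -1.08). Relb followed at -1.28 (-1.49 to -1.07), Rel at -1.05 (-1.31 to -0.81), Nfkb2 at -0.98 (-1.38 to -0.60) and Nfkbiz at -0.83 (-1.03 to -0.63). Nfkbia at -0.75 (-0.87 to -0.63) and Nfkbib at -0.68 (-1.14 to -0.25) also passed 1.5-fold, while Rela at -0.55 (-0.77 to -0.35) and Nfkb1 at -0.43 (-0.53 to -0.33) did not.

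The macrophage values again stood apart. Nfkbie at -1.23 (-1.75 to -0.76) and Nfkbia at -0.62 (-0.91 to -0.33) were lower in TAC+ART by 1.5-fold, which is 2 of 10 members against 8.22% of all genes counted. Nfkbia lay close to the limit, and the count was 1 with median-of-ratios scaling, with doublets kept and among cells of at least 3000 UMIs. The shares of all genes were then 7.08%, 7.49% and 8.57%. Nfkbiz was higher in TAC+ART at 0.59 (0.46 to 0.73), 1 of 10 members against 9.88% of all genes that were higher. The rest lay within 1.5-fold, from Nfkb2 at -0.48 (-0.98 to -0.01) to Tnfaip3 at 0.24 (-0.29 to 0.75). Rel was level at -0.01 (-0.19 to 0.17).

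In cardiomyocytes 4 of 9 members counted were lower in TAC+ART, against 24.2% of all genes counted, and none was higher (11.9%). These were Tnfaip3 at -2.10 (-3.79 to -0.80), Nfkbia at -1.08 (-1.51 to -0.67), Nfkb2 at -0.92 (-1.90 to 0.01) and Nfkbiz at -0.78 (-1.43 to -0.14). Rel stood at 0.10 (-0.36 to 0.57). With a minimum of 100 UMIs, 3 members were left for TAC over Sham and 4 for TAC+ART over TAC, and 1 passed 1.5-fold in each. The shares of all genes were 29.0% and 19.9%.

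**Figure D2:**
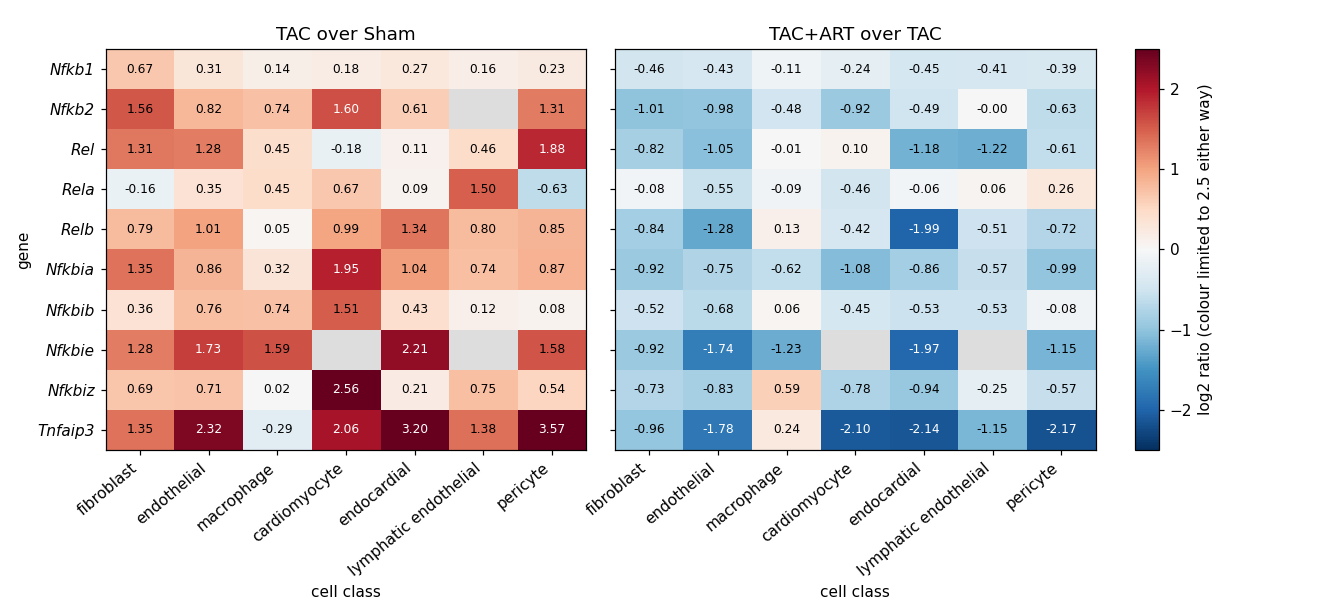
Log2 ratio of each member in each cell class, TAC over Sham (left) and TAC+ART over TAC (right), with red for higher and blue for lower. Grey cells hold fewer than 20 UMIs in the 2 libraries together. Nfkbiz in macrophages (0.59) is the member with a ratio above 0.58 in the right panel.

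Both comparisons use the TAC library, so a high or low TAC value enters them with opposite signs, and the TAC+ART over Sham ratios are given beside them. In fibroblasts these ran from -0.23 for Rela to 0.55 for Nfkb2 and in endothelial cells from -0.26 for Relb to 0.54 for Tnfaip3, and no member was past 1.5-fold in either class (11.8% and 8.91% of all genes counted were higher, 8.60% and 6.60% lower). In macrophages 2 of 10 members were higher in TAC+ART than in Sham, against 8.86% of all genes counted, and none was lower (15.0%). They were Nfkbib at 0.80 (-0.19 to 2.08) and Nfkbiz at 0.61 (0.40 to 0.83). In cardiomyocytes 4 of 8 members counted were higher, against 21.1% of all genes, and none was lower (9.85%). These were Nfkbiz at 1.78 (0.77 to 3.07), Nfkbib at 1.06 (-0.12 to 2.5), Nfkbia at 0.86 (0.29 to 1.48) and Nfkb2 at 0.68 (-0.51 to 2.06).

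The gap between macrophages and endothelial cells or fibroblasts was measured directly, as the difference of 2 log2 ratios with its counting interval. For TAC over Sham, the endothelial ratio exceeded the macrophage ratio by 2.61 for Tnfaip3 (1.74 to 3.48), by 0.96 for Relb (0.48 to 1.43), by 0.83 for Rel (0.39 to 1.27), by 0.70 for Nfkbiz (0.37 to 1.02) and by 0.54 for Nfkbia (0.13 to 0.95). The fibroblast ratio exceeded it by 1.64 for Tnfaip3 (0.72 to 2.56), 1.04 for Nfkbia (0.57 to 1.5), 0.86 for Rel (0.35 to 1.38), 0.74 for Relb (0.26 to 1.21) and 0.67 for Nfkbiz (0.38 to 0.96). Nfkbie showed no such gap, with 0.14 (-1.05 to 1.33) between endothelial cells and macrophages. Some ratios given above ran the other way. For Rela, the fibroblast and endothelial ratios lay below the macrophage ratio. So did the fibroblast ratios of Nfkbib and Nfkbie and the cardiomyocyte ratio of Rel. Endothelial cells and fibroblasts differed from each other too. Nfkbia was 0.50 higher (0.19 to 0.80) and Nfkb1 0.37 higher (0.22 to 0.51) in the fibroblast ratio, whereas the fibroblast minus endothelial value was -0.97 for Tnfaip3 (-1.78 to -0.17) and -0.51 for Rela (-0.85 to -0.17). These are single libraries, and no spread between hearts enters the intervals.

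**Figure D3:**
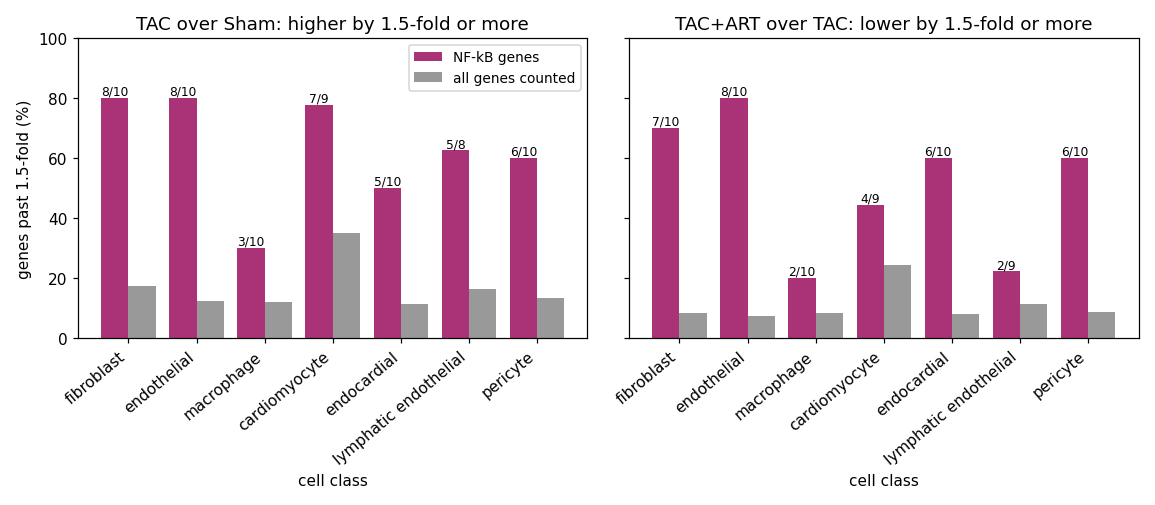
Share of the NF-kB genes (purple, with the number past 1.5-fold over the number counted) and of all genes counted (grey) that were higher in TAC than in Sham (left) and lower in TAC+ART than in TAC (right), in percent, by cell class. The purple bar reaches 80% in endothelial cells on both sides and 30% and 20% in macrophages, where the grey bar reads 11.9% and 8.22%.

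The cells of one class were not uniform, and the members were left out of the genes used for clustering. In fibroblasts, cluster 1 held 116, 130 and 1380 cells of Sham, TAC and TAC+ART. Nfkb1 read 312, 451 and 396 CPM there, a TAC over Sham ratio of 0.53 (0.28 to 0.79), and Nfkbia read 28, 52.5 and 32.2, a ratio of 0.89 (0.09 to 1.79). The other members had TAC over Sham intervals that include 0 in this cluster, with few UMIs. Nfkb2 stood at 0.58 (-0.61 to 1.96) against 1.56 in the class, Rel at 0.73 (-0.43 to 2.09) against 1.31 and Nfkbie at 0.11 (-2.92 to 3.79) against 1.28. In TAC+ART over TAC, cluster 1 gave -0.72 for Nfkbia (-1.17 to -0.21), -0.84 for Nfkbiz (-1.2 to -0.45), -0.91 for Rel (-1.59 to -0.11) and -1.19 for Nfkb2 (-1.92 to -0.32).

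Fibroblast cluster 0, which holds most TAC fibroblasts (1634 cells, against 324 of TAC+ART and 49 of Sham), had smaller TAC+ART over TAC ratios than the class for most members. Nfkbia read 68.1 CPM in TAC and 51.1 in TAC+ART, a ratio of -0.41 (-0.75 to -0.10) against -0.92 in the class. Nfkb2 stood at -0.44 (-1.11 to 0.13), Nfkbiz at -0.38 (-0.68 to -0.10), Relb at -0.37 (-0.71 to -0.06) and Rel at -0.30 (-0.86 to 0.18), all within 1.5-fold. Tnfaip3 at -0.99 (-2.04 to -0.20) and Nfkbie at -0.75 (-1.92 to 0.13) were past it, from 140 and 12 and from 99 and 10 UMIs. How far the class ratios follow the clusters rather than levels within them was not tested.

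Among the 5 endothelial clusters, 3 held at least 50 cells in each library. Cluster 3 held 131, 715 and 664 cells of Sham, TAC and TAC+ART, with Vegfc among its leading genes. There Nfkbia read 155 CPM in Sham, 313 in TAC and 146 under TAC+ART, and Relb read 33.4, 126 and 38.5. Tnfaip3 read 12.3, 60.6 and 12.5 CPM and Rel 19.4, 67.6 and 22.5, with TAC far above the other libraries each time. The TAC over Sham ratio in cluster 3 was 1.01 for Nfkbia (0.70 to 1.35), 1.88 for Relb (1.25 to 2.66), 1.74 for Rel (0.94 to 2.83) and 2.2 for Tnfaip3 (1.23 to 3.63). For Nfkbiz it was 0.52 (0.05 to 1.05) and for Nfkb1 0.38 (0.10 to 0.68).

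Cluster 2 held 80, 786 and 727 cells, with Btnl9 among its leading genes. Nfkbia read 123 CPM in Sham, 125 in TAC and 102 under TAC+ART, a TAC over Sham ratio of 0.01 (-0.45 to 0.53), and Relb read 52.1, 61.4 and 30.6, a ratio of 0.20 (-0.47 to 1.04). The cluster 2 and cluster 3 intervals do not overlap for either gene. For every other member they do, among them Tnfaip3, Rel, Nfkb1 and Nfkbiz, the last at 0.72 in cluster 2 (-0.13 to 1.87). No share of all genes is set beside this, so a general difference between these clusters is not read from it. In cluster 14 (73, 162 and 129 cells, with the arterial genes Sema3g, Gja5 and Sox17 among its leading genes) Nfkbia was 139, 152 and 116 CPM, with a ratio of 0.12 (-0.40 to 0.69). Tnfaip3 in cluster 14 was 3.4, 26.3 and 7.4 CPM, a ratio of 2.41 whose interval (0.30 to 8.33) is wide. Since cluster 9, which holds most Sham endothelial cells, has 37 TAC cells, it could not be compared across the libraries.

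Cluster 10 was the macrophage cluster with at least 50 cells in each library (57, 450 and 259), and its leading genes include Ccr2 and MHC class II genes. Rel read 118 CPM in Sham, 116 in TAC and 147 under TAC+ART there, and Nfkb1 442, 353 and 318. Nfkbiz read 123, 194 and 249 CPM, with a TAC+ART over TAC ratio of 0.36 (0.10 to 0.61). Its TAC over Sham ratio here was 0.63 (0.06 to 1.32), from 24 Sham and 316 TAC UMIs, although the class showed no detectable difference. Nfkbie was 5.1, 27.7 and 4.5 CPM from 1, 45 and 4 UMIs, and its TAC+ART over TAC ratio was -2.48 (-4.57 to -1.18). Tnfaip3 read 5.1, 11.1 and 17.8 CPM from 1, 18 and 16 UMIs. The Nfkbiz TAC+ART over TAC ratio is below 1.5-fold here and below the class value of 0.59, and the cluster held 22.1% of TAC+ART macrophages.

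**Figure D4:**
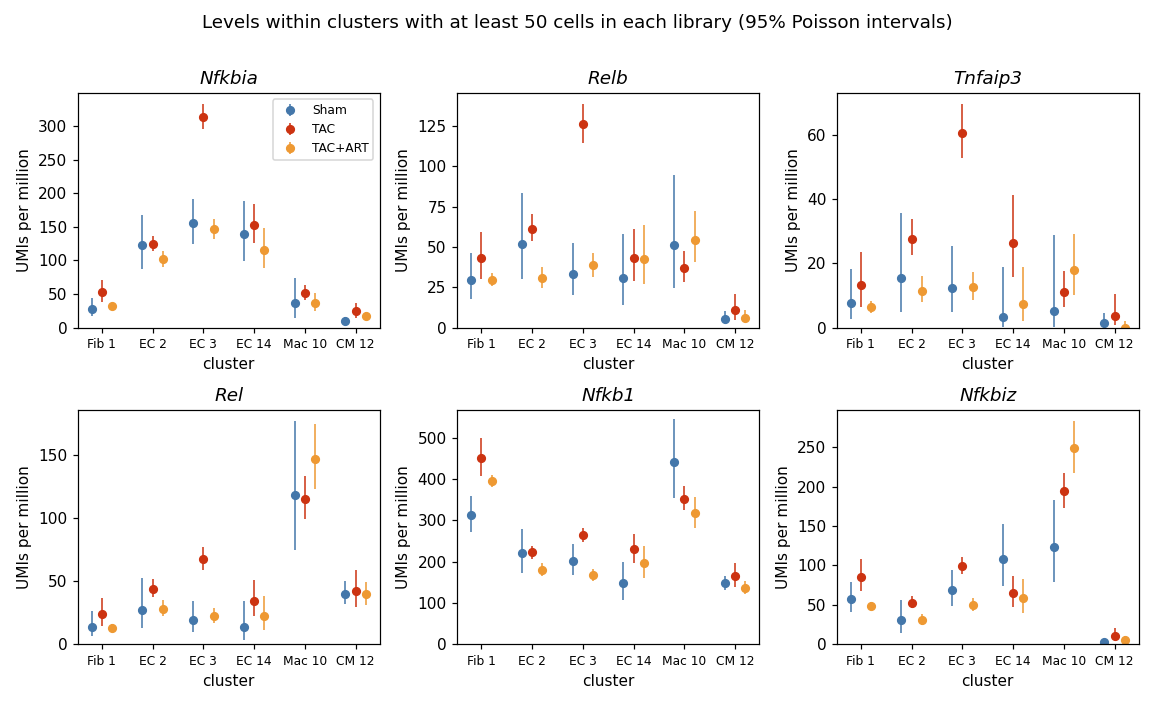
Level of 6 members in CPM within the 6 fibroblast (Fib), endothelial (EC), macrophage (Mac) and cardiomyocyte (CM) clusters that have at least 50 cells in each library. Points are cluster sums per library and bars are 95% Poisson intervals. Nfkbia, Relb, Tnfaip3 and Rel have a TAC value well above the other two libraries in EC 3, where Nfkbia reads 313 against 155 and 146.

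In endocardial cells, which line the chambers, 5 of 10 members were higher in TAC than in Sham, against 11.4% of all genes, and 6 of 10 had lower values under artesunate, against 7.94%. Tnfaip3 read 2.94, 31.3 and 6.85 CPM (3, 64 and 11 UMIs), Relb 36.2, 92.9 and 23.1, and Nfkbie 2.94, 15.6 and 3.74. Relb in TAC+ART was lower than in TAC by 1.99 on the log2 scale, with an interval from -2.56 to -1.5. Against Sham, 3 of the 7 endocardial members counted were lower in TAC+ART (9.46% of all genes), among them Rel at -1.07 (-1.87 to -0.31) and Nfkbiz at -0.73 (-1.18 to -0.29). Relb was the other, at -0.65 (-1.35 to 0.05).

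In pericytes 6 of 10 members were higher in TAC (13.2% of all genes) and 6 of 10 were lower in TAC+ART (8.61%), of which 3 had intervals that exclude 0. Rel read 5.52, 21.2 and 13.8 CPM in pericytes and Tnfaip3 1.23, 18 and 3.81, the latter from 2, 33 and 8 UMIs. Rela was the only member lower in TAC than in Sham by 1.5-fold in any of the 7 classes, at -0.63 (-0.96 to -0.31) in pericytes, where 11.2% of all genes were lower. In lymphatic endothelial cells 5 of 8 members counted were higher in TAC (16.4% of all genes) and 2 of 9 were lower in TAC+ART (11.3%), of which 2 and 1 had intervals that exclude 0. Nfkb2 and Nfkbie fell below the minimum for the first of these and Nfkbie for the second. Sham held 78 lymphatic cells, and Nfkbie had 0 UMIs there. A count of 0 among that class's UMIs allows a level of up to 8.09 CPM at 3 counts, against 10.0 in TAC. Nfkbia read 78.2, 133 and 88.9 CPM and Rela 16.2, 49.3 and 51.1 in lymphatic cells. Summed macrophage and fibroblast markers were higher in TAC than in Sham in all 3 of these classes. Pericyte markers were lower in TAC than in Sham in endocardial cells (146 and 157 CPM) and in lymphatic cells (119 and 205). Macrophage markers summed to 147, 308 and 267 CPM in endocardial cells, 131, 329 and 352 in pericytes and 240.1, 451 and 488 in lymphatic cells. Fibroblast markers summed to 1427, 2706 and 3372 CPM, 2032, 3114 and 3698, and 1103, 2248 and 2619 in the same classes. Their part in these ratios was not tested.

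Over all 17090 cells together, Nfkbia read 55.1 CPM in Sham, 110.4 in TAC and 61.7 under TAC+ART, and Tnfaip3 read 5.93, 21.3 and 8.25. Of the 10 members 8 were higher in TAC (13.9% of all genes) and 5 were lower in TAC+ART (7.38%). Rela read 45.3, 47.2 and 41.3 CPM, with a ratio of 0.06 (-0.06 to 0.19) for TAC over Sham. Its TAC+ART over TAC ratio was -0.19 (-0.30 to -0.08), lower by less than 1.5-fold. These sums also move with the makeup of the libraries, in which macrophages were 10.3% of Sham cells, 19.9% of TAC cells and 15.9% in TAC+ART.

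The other genes of the pathway were taken from fixed lists. Of 25 activators and IKK components, 25 were counted in fibroblasts, endothelial cells and macrophages. In TAC over Sham, 1, 2 and 0 of them were higher by 1.5-fold and none was lower, with medians of -0.09, -0.08 and -0.07. Of all genes, 17.4%, 12.4% and 11.9% were higher and 15.9%, 12.5% and 17.6% lower in these classes. The 2 endothelial genes were Irak2, a kinase below interleukin-1 and Toll-like receptors, at 107, 255 and 118 CPM with a ratio of 1.25 (1.10 to 1.40), and Map3k14, which encodes the kinase NIK of the alternative pathway, at 0.66 (0.36 to 0.97). In fibroblasts Traf3, an adaptor that restrains NIK, stood at 0.61 (0.47 to 0.74). Their TAC+ART over TAC ratios were -1.12 for endothelial Irak2 (-1.23 to -1.0) and -0.50 for fibroblast Traf3 (-0.61 to -0.39). The kinase gene Ikbkb was 75.0, 56.5 and 60.4 CPM in fibroblasts, a ratio of -0.41 (-0.60 to -0.22).

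Of the 14 receptors, 5 of 13 counted were higher and 1 lower in TAC fibroblasts, 4 of 13 were higher in endothelial cells, and 2 of 14 were higher and 4 lower in macrophages. The shares of all genes were 17.4% higher and 15.9% lower, 12.4% higher, and 11.9% higher and 17.6% lower. Tnfrsf12a, the receptor for TWEAK, was higher in all 3 classes, at 1.93 (1.43 to 2.5), 1.78 (1.08 to 2.64) and 1.80 (0.65 to 3.60). Tlr2 was higher as well, at 1.85, 1.72 and 1.05. The tumour necrosis factor receptor gene Tnfrsf1b was 38.4, 78.4 and 64.3 CPM in fibroblasts, a ratio of 1.03 (0.80 to 1.26). Cd40 was lower in fibroblasts at -0.84 (-1.18 to -0.50) and in macrophages at -0.91 (-1.33 to -0.47), and its TAC+ART over TAC ratios were 0.82 and 0.80. Il1r1, an interleukin-1 receptor, was lower in macrophages at -1.66 (-2.16 to -1.15), with 34.7 CPM in Sham, 11 in TAC and 10.8 under TAC+ART.

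Among 18 other IkB proteins and brakes, Bcl3, a nuclear IkB protein, had the largest ratio in fibroblasts and endothelial cells. It read 9.16, 25.2 and 10.3 CPM in fibroblasts (1.45, from 1.01 to 1.94) and 15.0, 52.6 and 15.9 in endothelial cells (1.80, from 1.42 to 2.23), and its TAC+ART over TAC ratios were -1.29 and -1.73. In macrophages Bcl3 was 24.5, 37.3 and 15.6 CPM. Tnip1, which binds A20, was 40, 74.2 and 44.4 CPM in endothelial cells. The list as a whole had medians of 0.12, 0.07 and 0.14 in the 3 classes, with 2 of 15, 4 of 17 and 2 of 18 genes higher, against 17.4%, 12.4% and 11.9% of all genes, so that the fibroblast and macrophage counts were near the background.

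The list of NF-kB target genes had medians of 0.80 in fibroblasts (13 of 22 higher, 0 lower), 1.59 in endothelial cells (16 of 23 higher, 1 lower) and 0.65 in macrophages (12 of 22 higher, 3 lower) for TAC over Sham, where 17.4%, 12.4% and 11.9% of all genes were higher. The shares of all genes that were lower were 15.9%, 12.5% and 17.6%. For TAC+ART over TAC the medians were -0.80 (14 of 23 lower), -1.04 (15 of 25 lower) and -0.35 (8 of 23 lower), where 8.38%, 7.29% and 8.22% of all genes were lower. Sele, which encodes the adhesion molecule E-selectin, was 0.516, 13.4 and 3.83 CPM in endothelial cells (2, 113 and 28 UMIs). The chemokine gene Cxcl2 was 0.774, 12.3 and 0.547 CPM there (3, 104 and 4 UMIs). Il6 was 1.36, 9.25 and 0.911 CPM in fibroblasts (7, 91 and 8 UMIs). In macrophages the chemokine gene Ccl2 went the other way, at 52.9, 24.2 and 32.9 CPM, a ratio of -1.13 (-1.5 to -0.75). The interferon regulator Irf1 stood at -0.31 (-0.60 to -0.01) in fibroblasts and Pim1 at -0.74 (-1.08 to -0.40) in endothelial cells.

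Immediate early and heat shock genes, which respond within minutes to many kinds of stimulus, were higher in TAC and lower in TAC+ART in fibroblasts and endothelial cells, as the members were. In TAC over Sham, 20 of 27 were higher in fibroblasts (median 1.0), 13 of 25 in endothelial cells (0.66) and 5 of 26 in macrophages (0.09), against 17.4%, 12.4% and 11.9% of all genes. In the same classes 0, 2 and 4 were lower, against 15.9%, 12.5% and 17.6%. In TAC+ART over TAC, 18 of 27, 20 of 25 and 11 of 26 were lower, with medians of -0.91, -0.95 and -0.45, against 8.38%, 7.29% and 8.22% of all genes. Cardiomyocytes had 14 of 17 higher in TAC (median 1.475), against 35.1% of all genes. In TAC+ART over TAC 17 of 18 were lower there (median -1.158), against 24.2%. Endocardial cells differed, with 3 of 21 higher and 7 lower in TAC (median 0.08), against 11.4% and 15.8% of all genes. In macrophages 13 of 23 were lower in TAC+ART than in Sham (median -0.65), against 15.0%. Fibroblast Nr4a3 read 2.53, 14.0 and 1.82 CPM and endothelial Fosl2 20.1, 68.5 and 16.7. The endothelial level of Egr1 did not follow this, at 99.4, 43.1 and 13.1 CPM. The sources used here do not give the time between harvest and freezing, and the part of these genes in the members' ratios was not tested.

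The share of cells with at least 1 UMI was compared at equal depth by thinning each cell to 1000 UMIs. No class lacked the members, so no background share could be set beside them. At median depths of 4621, 6207 and 5163.5 UMIs, 30% of Sham fibroblasts held Nfkb1 after thinning (27.3 to 32.9), 39.0% of TAC fibroblasts (36.6 to 41.4) and 32.4% of TAC+ART fibroblasts (30.1 to 34.7), against 72.3%, 84.1% and 79.2% before thinning. Nfkbia was found in 9.97%, 16.3% and 11% of thinned endothelial cells (29.8%, 47.5% and 34.2% before). For Nfkbiz the shares in thinned macrophages were 12% (8.89 to 15.7), 12.3% (10.6 to 14.2) and 16.7% (14.5 to 19.1), and 34.4%, 37.0% and 47.7% before. In these 3 cases the order of the libraries was that of the CPM levels. Over all 10 members and 7 classes it was so in 39 of 70 pairs of a member and a class. For Nfkb1 in macrophages, for example, the thinned shares were 27.2%, 26.1% and 25.2% while the levels were 303, 335 and 310.4 CPM, and no order is read from such shares. No fibroblast, endothelial cell or macrophage was too shallow to be thinned.

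The members were also compared over the 21 points given by 7 classes in 3 libraries, as Pearson correlations of log2(CPM + 1). Points of one library share its depth and handling, and points of one class its markers, so the values are descriptions. Relb and Nfkbiz were the most alike pair with r = 0.75, then Nfkb2 and Tnfaip3 with 0.75 and Nfkb2 and Nfkbie with 0.72. Rel and Rela were the least alike, with r = -0.43. Among 12961 genes with at least 300 UMIs, the profile most like Tnfaip3 was that of Bcl3 (r = 0.87), followed by Tnip1 (0.82), both from the fixed list of brakes. Nfkb1 was most like Ldlrad4 (0.93) and Smad3 (0.92), Rela most like Rock1 (0.92), Relb most like Ripk2 (0.92) and Nfkbia most like Rnd1 (0.91). Nfkbiz was most like Abi1 (0.94), Rel most like Il10rb (0.85) and Nfkb2 most like Prr13 (0.89). The profile of the sparse Nfkbie was most like that of Gm43984 (0.85), followed by Ubqln1 (0.83) and Birc3 (0.82).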

How the data were processed

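Raw UMI counts per gene and barcode were deposited by the authors for 3 libraries (per the file headers, integer matrices without normalization). Per the submitters' processing notes, Cell Ranger and Seurat were used on mm10, and the sources used here give neither versions nor annotation. The libraries held 17710689 (Sham), 37658150 (TAC) and 33364667 (TAC+ART) UMIs. Barcodes under 500 UMIs or 300 genes, or above 10% mitochondrial UMIs, were removed (2, 1 and 0). An own implementation of a Scrublet-like score, with 2 simulated doublets per barcode, removed the top 0.8% per 1000 barcodes: 112, 440 and 376.

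Each cell was scored for fixed marker lists, as the mean z value (limited to 5) of log values within its library, averaged over its 20 nearest neighbours. It was given the class of the highest score if that was at least 0.3 and the next unrelated class scored at most 0.7 times as high. The 994 cells that met no class were left out, as were classes under 50 cells in a library. Clusters (28, Leiden, 3000 variable genes without the members, 30 components, 20 neighbours, resolution 1) were used to describe the classes and as an alternative to the gate. Counts of a class were added up in each library and scaled to the class total. Ratios had 0.5 added to each sum. Intervals at 95% are exact Poisson (levels), exact conditional binomial (ratios), Clopper-Pearson (shares) and delta-method (differences of ratios), and cover counting error only. The member lists, gene lists and rules were chosen with earlier results of these data known, so nothing in them is independent support. All 10 members were named in the 4 largest classes, and from each list the 3 highest and 3 lowest genes with at least 50 UMIs could be named. Gene positions came from GENCODE M21 (GRCm38) and promoters from RefSeq. The ratio step was checked on simulated counts. Python 3.11.15, numpy 2.4.6, scipy 1.17.1, scikit-learn 1.9.0 and leidenalg 0.10.2 were used. Alternatives were other scalings, count minimums, gates, depths and weights, doublets kept, and classes from clusters. Limits to cells of at least 3000 UMIs and to barcodes found in 1 library were added after seeing the data.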

Additional observations from a re-analysis of the deposited data

Results flagged for a closer look

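Some members had ratios of opposite sign in a pair of classes, with intervals on opposite sides of 0. None of these differences was tested, since each rests on single libraries. Rela in TAC over Sham was higher in cardiomyocytes (0.67) and lymphatic endothelial cells (1.5) and lower in pericytes (-0.63), a difference of 1.31 from pericytes for cardiomyocytes and of 2.13 for lymphatic endothelial cells. The lymphatic value rests on 6 Sham UMIs, and the cardiomyocyte value turned to -0.01 among cells of at least 3000 UMIs.

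Nfkbiz in TAC+ART over TAC was higher in macrophages (0.59) and lower in fibroblasts, endothelial, endocardial and cardiomyocyte cells. The fibroblast minus macrophage difference was -1.33 and the endothelial minus macrophage difference -1.42. The macrophage ratio exceeded the cardiomyocyte ratio by 1.38 and the endocardial ratio by 1.54. Most TAC macrophages lay in cluster 6 and most TAC+ART macrophages in cluster 7. Within cluster 10, found in all 3 libraries, the Nfkbiz ratio was 0.36 (0.10 to 0.61).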

How the results depend on the processing

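Of 839 member ratios recomputed under the alternatives in the 4 largest classes, 1 past 1.5-fold reversed and 3 others moved outside their counting interval, all in cardiomyocytes. The 839 include 78 ratios without a count minimum and 64 with at least 100 UMIs. These could not change, because a minimum alters only which ratios are counted. A reversal was defined only for the 48 of 78 ratios past 1.5-fold in the main run. The reversed one was Rela in TAC over Sham, -0.0118 among cells of at least 3000 UMIs against 0.67. The counts of members past 1.5-fold in fibroblasts and endothelial cells stayed between 7 and 9 under every alternative run. In the main run 17.4% and 12.4% of all genes were higher in TAC in these classes, and 8.38% and 7.29% were lower in TAC+ART. The shares of all genes and the numbers of members counted under each alternative are not given here for these 2 classes, so only the counts are described. The macrophage count lower in TAC+ART was 1 instead of 2 with median-of-ratios scaling, with doublets kept and among cells of at least 3000 UMIs. The shares of all genes were then 7.08%, 7.49% and 8.57%. The macrophage count higher in TAC was 1 instead of 3 with equal weight per cell, against 12.6% of all genes. The cardiomyocyte counts were 1 instead of 7 (higher in TAC) and 1 instead of 4 (lower in TAC+ART) with at least 100 UMIs. That limit left 3 and 4 members, and 29.0% and 19.9% of all genes passed. Among cells of at least 3000 UMIs the count higher in TAC was 4 instead of 7, against 28.4% of all genes. Median-of-ratios scaling moved the all-gene median of the cardiomyocyte TAC over Sham ratios by -0.15, and by less than 0.1 in the other comparisons of the 4 classes. Depth limits values from few UMIs, such as Tnfaip3 in Sham pericytes and Nfkb2 in Sham lymphatic endothelial cells (2 each). No paired analysis was possible because each group has 1 library and the labels give no replicate numbers.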
